A study of Mus musculus with 17 samples.

Results

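The genes described here are 10 members of the MHC class I presentation pathway, out of 24416 genes counted in the series. They were chosen by name and function: the heavy chains H2-K1 and H2-D1, the light chain B2m, the transactivator Nlrc5, the peptide transporter subunits Tap1 and Tap2, the trimming peptidase Erap1, the immunoproteasome subunits Psmb8 and Psmb9, and the proteasome activator subunit Psme1. The choice was made with earlier results of these data known, so shares of all genes set beside the members' counts are a description. The series measured RNA in common myeloid progenitors, the precursors of granulocytes, macrophages, megakaryocytes and red cells, isolated with a cell sorter from the fetal liver or adult bone marrow of mice. There were 17 libraries. Fetal liver gave 3 wild-type libraries, 3 libraries labelled Lin28b knockout and 1 library with inducible let-7. Adult marrow gave 3 wild-type libraries, 3 let-7b/c knockout libraries, 2 libraries with inducible LIN28B and 2 with inducible LIN28B and vavcre, a Cre transgene that restricts the induction to blood cells. The strain was C57BL/6J, except for the let-7b/c knockout, which was labelled albino black 6. The labels carry the same treatment line, doxycycline to overexpress Lin28b, for every group, wild type included, and give no ages, no litters and no word on whether replicate libraries stem from different animals. The p-values below therefore rest on the spread among libraries, part of which may be technical.

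Almost every nucleated cell shows class I molecules, each a heavy chain paired with beta-2-microglobulin and holding a short peptide from the cell's own proteins. The peptides are cut by the proteasome, whose catalytic subunits are exchanged for the immunoproteasome forms where interferon acts, then pumped into the endoplasmic reticulum by the TAP transporter and trimmed there by ERAP1. NLRC5 sits with RFX, CREB and NF-Y factors on the X and Y boxes of class I promoters, and interferon regulatory factors and NF-kB act on elements just upstream. LIN28B, which binds RNA, blocks the maturation of let-7 microRNAs in fetal progenitors.

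Promoter sequences are shown first, because H2-K1, H2-D1 and B2m, 3 of the members that differed most between fetal liver and marrow, share a short promoter layout. RefSeq windows from 250 bases before to 50 bases after the transcript start were at hand for 8 of the 10 members (GRCm38.p6). They were searched on both strands for the X2 and Y boxes at a fixed spacing (TGACG and ATTGG with 20 bases between), a palindromic kB site (GGGGA, a T, then TCCCC), an interferon element (GAAA, any NN, then GAAA) and a shorter form of it (GAA, any NN, then GAAA) that can overlap it. The 20-base spacing was chosen after the members' promoters had been read, so their match to it is a description. The stretches below run 5′ to 3′ on the strand of the gene, with the matches in capitals, on GRCm38.p6. H2-K1 is at chr17:34000355-34000462 (minus strand), H2-D1 at chr17:35262919-35263026 (plus), B2m at chr2:122147544-122147642 (plus) and H2-M3, a class I heavy chain outside the 10 members, at chr17:37270129-37270221 (plus).
H2-K1: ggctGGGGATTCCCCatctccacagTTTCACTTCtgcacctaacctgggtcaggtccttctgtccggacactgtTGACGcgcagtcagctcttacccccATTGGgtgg
H2-D1: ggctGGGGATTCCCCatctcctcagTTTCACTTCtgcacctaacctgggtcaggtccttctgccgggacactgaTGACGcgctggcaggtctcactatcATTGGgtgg
B2m: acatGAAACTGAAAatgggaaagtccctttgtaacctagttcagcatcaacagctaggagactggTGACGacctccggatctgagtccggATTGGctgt
H2-M3: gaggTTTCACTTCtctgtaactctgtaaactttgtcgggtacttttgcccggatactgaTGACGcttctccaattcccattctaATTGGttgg

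The H2-K1 and H2-D1 stretches were identical at 97 of 108 bases (89.8%). Each carried, in the same order, the kB site, the short interferon element and the X2 and Y boxes. B2m held an interferon element and no kB site upstream of the same pair of boxes. H2-K1 has 2 RefSeq starts, and its distances are from the upstream one. The paired boxes were found in 31 of 32851 windows genome-wide (0.0944%), which belong to 27 genes. Of those 27 genes, 18 were tested for expression, and 5 were lower in fetal liver than in marrow, against 13.2% of all genes. These were H2-K1, H2-D1, B2m, H2-M3 and Kcnq1ot1, a non-coding RNA. Another 2, Hspa14 and Xpnpep1, were higher, against 13.9% of all genes. The spacing was chosen after the promoters of H2-K1, H2-D1 and B2m had been read, so the count of 5 is no result about the motif. The kB site was in 10 windows (0.0304%), the interferon element in 1131 (3.44%) and its short form in 2469 (7.52%). Erap1 held an interferon element across its start, and Psme1 held both forms just after its start. None of the 4 patterns was in the windows of Psmb8, Psmb9 or Tap1, which says only that these letters are not in those windows.

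**Figure D1:**
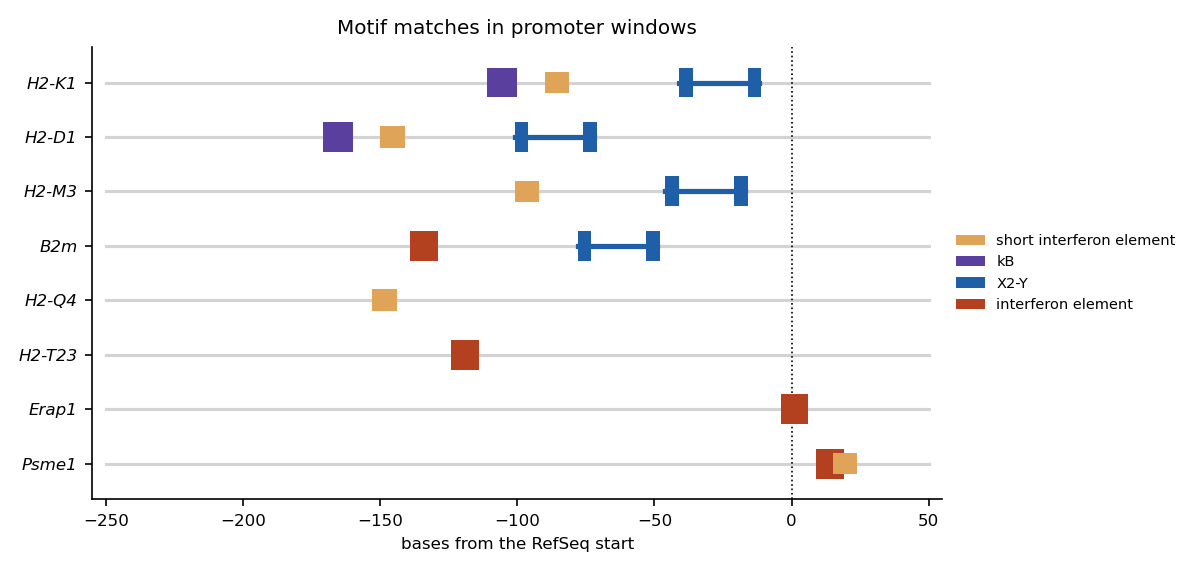
Motif matches in promoter windows of class I heavy chain genes, B2m, Erap1 and Psme1, by distance in bases from the RefSeq transcript start (dotted line). Boxes joined by a line are the X2 and Y boxes. H2-K1, H2-D1, H2-M3 and B2m hold the joined pair between 101 and 12 bases before the start, each with an interferon-type element upstream of it.

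Levels are in CPM, a gene's counts relative to the library total after scaling by the TMM method, and differences were tested with the quasi-likelihood method of edgeR on 13558 genes with Benjamini-Hochberg adjustment. A gene was called at an adjusted p under 0.05, and "rose" or "fell" is used only for called genes. Library totals were 14957111 to 28165554 counts, made without molecular identifiers, so counting intervals cover counting error only. Of the 10 members, 9 passed the filter on low counts. Tap1 (chr17:34187556-34197225) had 54 counts over the 17 libraries. It has 2 RefSeq transcripts in the files, and reads matching more than 1 transcript were not counted, so its level was not measured. H2-K1 and H2-D1 are near-identical genes whose shared reads could go to either or be lost, so the value of each is uncertain. Lin28b stood at 88.9, 111 and 112 CPM in the libraries labelled Lin28b knockout and at 89.3, 99.6 and 124 CPM in wild-type fetal liver, so counts per transcript did not show the loss, and the name "labelled" is kept for them. Hmga2, a let-7 target, stood at 19.6 to 24.6 CPM in them against 520.0 to 542 CPM in wild-type fetal liver. The progenitor markers Cd34, Gata2, Spi1 and Myb had counts in all groups, whereas Kit and Cebpa, each with more than 1 transcript in the files, had 0 counts in every library.

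Wild-type fetal liver progenitors held less message of most members than wild-type marrow progenitors. Of the 9 tested members 8 fell, against 13.2% of all genes tested. The same 8 were lower in every fetal library than in every marrow library, as were 25.1% of all genes. The median log2 difference of the 9 members was -1.5, and that of all genes -0.08. The difference was deepest for the transactivator Nlrc5, followed by the heavy chains, then B2m, and smallest for Erap1 and Psme1. Fetal liver and adult marrow differ in stage and in organ at once, which cannot be told apart here, and in bulk samples fewer cells of a type and less RNA per cell cannot be told apart either.

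Nlrc5 (chr8:94434335-94527272) is the transactivator that drives class I genes. It stood at 0.908, 0.754 and 0.573 CPM in wild-type fetal liver (44 counts in all) and at 46.5, 46.3 and 46.7 CPM in wild-type marrow. The fetal libraries were all under 1 CPM and the marrow libraries nearly equal to each other. The log2 difference was -5.94 ± 0.27 (SE, n = 3 and 3), a 61.2-fold lower level (edgeR adjusted p = 1.49e-09).

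H2-K1 (chr17:33996012-34000619) and H2-D1 (chr17:35263094-35267497) encode the classical heavy chains that hold the peptide. H2-K1 stood at 203, 216 and 215 CPM in fetal liver and at 1744, 1337 and 1703 CPM in marrow. H2-D1 stood at 117, 119.5 and 131 CPM in fetal liver and at 871, 883 and 857 CPM in marrow. Neither gene's groups overlapped, and H2-K1 varied more between the marrow libraries than H2-D1 did. The log2 difference of H2-K1 was -2.92 ± 0.14 (SE, edgeR adjusted p = 1.51e-09) and that of H2-D1 was -2.83 ± 0.08 (adjusted p = 2.26e-11).

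B2m (chr2:122147687-122153082), the light chain shared by all class I molecules, stood at 347, 365 and 380.1 CPM in fetal liver and at 1394, 1101 and 1461 CPM in marrow. The groups were apart, and the log2 difference of -1.86 ± 0.12 (SE, edgeR adjusted p = 4.34e-08) was smaller than those of the heavy chains. The light chain was therefore in larger proportion to the heavy chains in fetal liver. Divided by transcript length, B2m over the sum of H2-K1 and H2-D1 was 2.24 ± 0.0179 (SD, n = 3) in wild-type fetal liver and 1.09 ± 0.0683 (SD, n = 3) in wild-type marrow, with no test run on this ratio.

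Tap2 (chr17:34204479-34216321) encodes a subunit of the transporter that carries peptides into the endoplasmic reticulum. It stood at 146, 142 and 133 CPM in fetal liver and at 411, 388 and 373 CPM in marrow. All fetal libraries were below all marrow libraries, with a log2 difference of -1.48 ± 0.09 (SE, edgeR adjusted p = 3.44e-08).

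Erap1 (chr13:74639573-74693205), the aminopeptidase that trims peptides to fit the groove, differed little. It stood at 178, 179 and 199.98 CPM in fetal liver and at 229, 236 and 237 CPM in marrow. The groups did not overlap, and the log2 difference was -0.33 ± 0.09 (SE, edgeR adjusted p = 0.0123). The call was lost without wild-type fetal liver replicate 1 (adjusted p = 0.0521) or replicate 4 (adjusted p = 0.0628).

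Psmb8 (chr17:34198195-34201454) and Psmb9 (chr17:34182030-34187330) encode immunoproteasome catalytic subunits, which replace Psmb5 and Psmb6 in the core particle. Psmb8 stood at 263, 277 and 304 CPM in fetal liver and at 580.3, 613 and 611 CPM in marrow. Psmb9 stood at 40.0, 44.1 and 46.3 CPM in fetal liver and at 127, 113 and 129.7 CPM in marrow. Both were lower in every fetal library. The log2 difference was -1.09 ± 0.13 for Psmb8 (SE, edgeR adjusted p = 1.56e-05) and -1.5 ± 0.14 for Psmb9 (adjusted p = 2.55e-06). Psme1 (chr14:55578494-55581527), a subunit of the PA28 activator that caps the proteasome, stood at 237, 257 and 248 CPM in fetal liver and at 281, 256 and 286 CPM in marrow. These groups overlapped, and the log2 difference of -0.15 ± 0.10 (SE) was not called (edgeR adjusted p = 0.308).

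**Figure D2:**
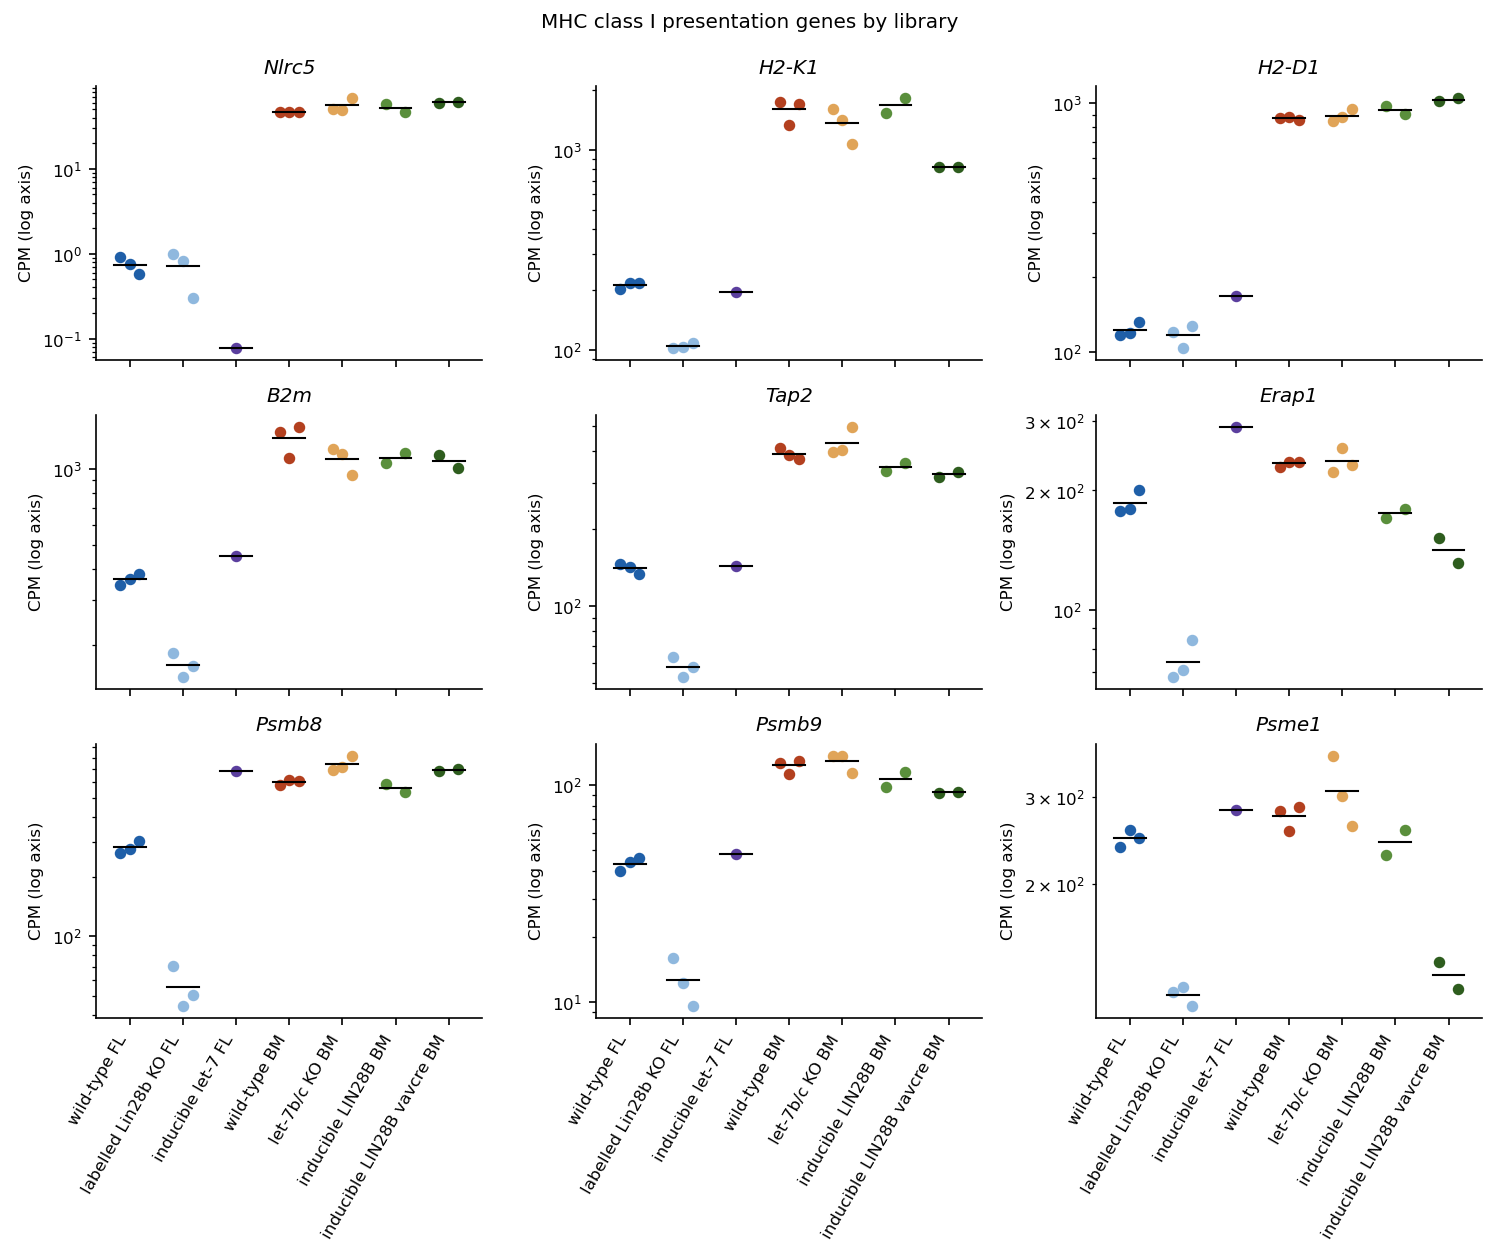
CPM on a log axis of the 9 measured members in each of the 17 libraries (points) with the group mean (line). All members but Erap1, Psmb8 and Psme1 sit lower in all fetal liver (FL) libraries than in all adult bone marrow (BM) libraries, and Nlrc5 is near 1 CPM or below in fetal liver against 46.2 CPM or more in marrow.

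Most other genes of the core proteasome were called in the opposite direction to Psmb8 and Psmb9. The constitutive catalytic subunits rose in fetal liver in 3 of 3 cases: Psmb5 (log2 0.57), Psmb6 (0.46) and Psmb7 (0.79). Of the 11 other core subunits 10 rose, with a median log2 difference of 0.55, against 13.9% of all genes called higher. Psmb10, the third immunoproteasome catalytic subunit, was not called (log2 -0.06, edgeR adjusted p = 0.712), while the activators Psme3 (0.62) and Psme4 (0.43) and the assembly factor Pomp (0.68) rose.

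The messages of each immunoproteasome subunit and its constitutive counterpart were compared inside each library as a ratio of counts, which does not depend on library scaling. These RNA ratios are not corrected for transcript length, and no protein or assembled particle was measured. Psmb8 over Psmb5 was 1.87 to 2.01 in wild-type fetal liver, 5.79 to 6.54 in wild-type marrow and 0.276 to 0.505 in the libraries labelled Lin28b knockout. Psmb9 over Psmb6 was 0.143 to 0.149, 0.496 to 0.634 and 0.0342 to 0.0587 in the same order, and Psmb10 over Psmb7 was 0.880 to 0.909, 1.44 to 1.98 and 0.426 to 0.505. For each pair the count ratio was lowest in the labelled knockout, intermediate in wild-type fetal liver and highest in wild-type marrow, and no ranges overlapped. Between fetal liver and marrow Psmb10 itself was not called, while Psmb7 rose. Fetal liver minus marrow, the mean log2 ratio differed by -1.66, -1.97 and -0.87. Labelled knockout minus wild-type fetal liver, it differed by -2.42, -1.71 and -0.96. Each of the 6 two-sided exact permutation tests gave p = 0.1, the smallest that 3 against 3 libraries allow, so none can pass 0.05 (Benjamini-Hochberg over the 6, also 0.1).

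**Figure D3:**
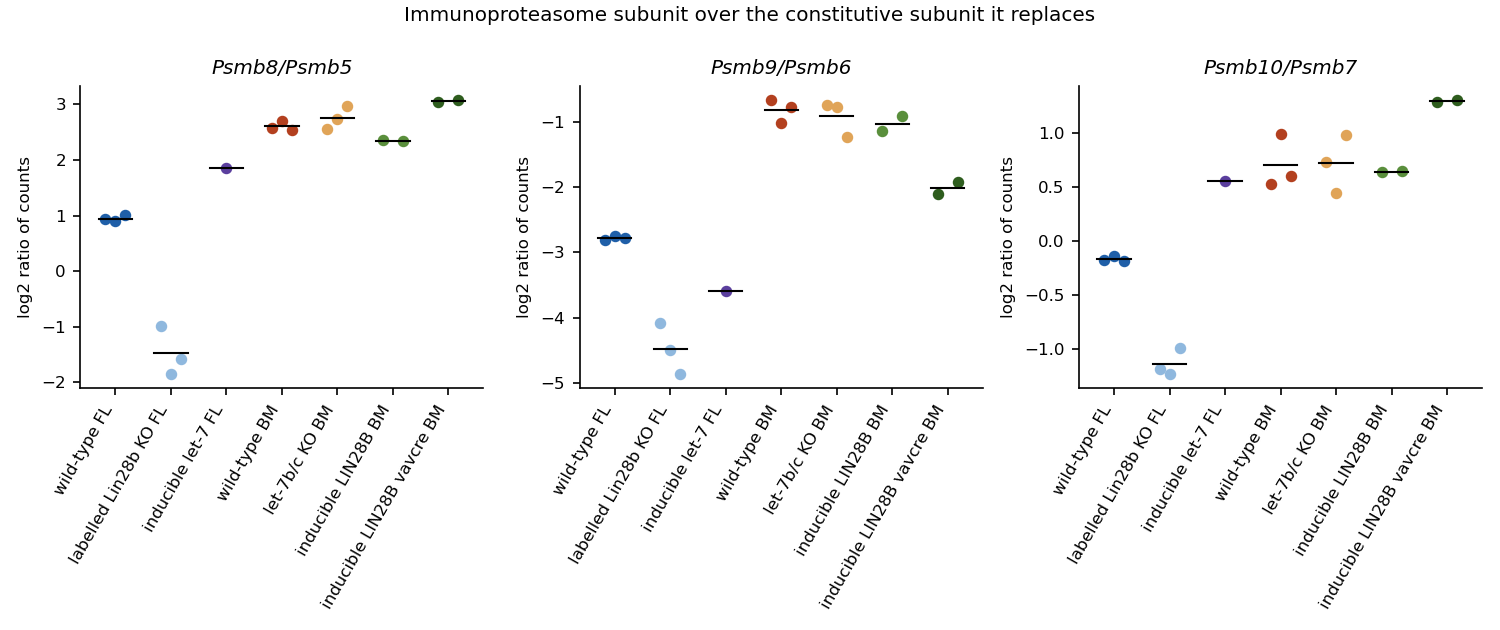
Log2 ratio of the counts of each immunoproteasome subunit to the constitutive subunit it replaces, by library (points) with the group mean (line). The libraries labelled Lin28b knockout are lowest in all 3 panels, and wild-type fetal liver lies between them and wild-type marrow.

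Other genes of the presentation pathway were counted by role, from lists chosen with earlier results of these data known. Beside the list counts below, 13.2% of all genes tested were called lower in fetal liver than in marrow and 13.9% higher. Of 7 tested heavy chains outside the members, 6 fell in fetal liver, with a median log2 difference of -3.28, or -2.30 with genes at 0 counts set at a floor of 3 counts over the group. H2-M3, whose promoter is printed above, stood at 37.2, 33.0 and 29.1 CPM in marrow and fell to 7.85, 6.78 and 5.44 CPM in fetal liver (log2 -2.30). H2-T23, a non-classical heavy chain that presents leader peptides, fell from 279.7 to 310.3 CPM in marrow to 67.3 to 70.4 CPM in fetal liver (log2 -2.08). Of 10 tested regulators 5 fell, among them Rfx5, the X-box factor that partners NLRC5 (log2 -0.88), Stat2, which carries type I interferon signals (-0.91), and Nfkb1, an NF-kB subunit (-0.78). The interferon regulatory factor Irf2 (log2 -0.46) and Rela (-0.44) were the other 2. Irf1, Irf8 and Irf9 were not called. In peptide loading, Tapbpl fell (log2 -0.52), Pdia3 rose (0.36) and Calr was not called (-0.05, edgeR adjusted p = 0.787). Only these 3 of the 6 listed loading genes were tested. Tapbp and Canx had 0 counts in every library and Hspa5 had few, so their levels were not measured. Class II genes, which present outside peptides in other cells, fell in 8 of 9 tested cases, for instance H2-DMa (log2 -2.12) and H2-Ab1 (-1.67). Some class II counts were near the floor. Cd74 had 0 counts in fetal liver and 14 in marrow, and H2-Aa had 1, 2 and 0 counts in the fetal libraries.

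Markers of other cells also differed between the groups of this comparison, in which 13.2% of all genes were called lower and 13.9% higher. Of the 12 granulocyte markers 11 were tested and 10 of these were lower in wild-type fetal liver, with a median log2 difference of -4.78, deeper than that of the members. Their summed level was 5207 to 6787 CPM in wild-type fetal liver and 10978 to 13007 CPM in wild-type marrow, most of it from Mpo, a granule peroxidase, which differed less than the median marker (log2 -0.91). Of the 12 monocyte, macrophage and dendritic markers, all tested, 1 was higher and 4 lower. The sum of these 12 monocyte, macrophage and dendritic markers, all with counts, was 544 to 584 CPM and 529 to 634 CPM. Of the 12 T and NK cell markers 7 were tested, and they did not move one way: 2 were higher (Cd4 and Cd3d) and 2 lower (Nkg7 and Ncr1). Cd3d had 8 counts in fetal liver and 0 in marrow, and Ncr1 0 and 28. The sum of the T and NK cell list, 60.04 to 68.1 CPM in wild-type fetal liver and 373 to 376 CPM in wild-type marrow, came mostly from Nkg7, a granule protein gene, at 43.7 to 56.6 and 366 to 370 CPM, while Cd8a and Klrb1c were at 0 in both groups. The part of these cells in the class I difference was not tested.

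The libraries labelled Lin28b knockout held less message of most members than wild-type fetal liver. Of the 9 tested members 7 fell, against 23% of all genes tested, with a median log2 difference of -1.13 (all genes 0.00). These 7 were also lower in every labelled knockout library than in every wild-type fetal liver library, as were 30.9% of all genes. The members that fell span the light chain, 1 heavy chain, transport, trimming, the immunoproteasome and its activator, and the immunoproteasome subunit Psmb8 fell furthest. H2-D1 and Nlrc5 were not called. This comparison shares its wild-type fetal liver libraries with the one above, so the differences are given side by side below and not as support for each other.

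Psmb8 stood at 71.1, 44.6 and 50.7 CPM in the labelled knockout, below every library of every other group. Its log2 difference from wild-type fetal liver was -2.34 ± 0.13 (SE, n = 3 and 3, edgeR adjusted p = 1.72e-09), a 5.07-fold lower level. Psmb9, its partner in the core particle, stood at 15.9, 12.3 and 9.64 CPM (log2 -1.79 ± 0.15, adjusted p = 1.23e-07). Psme1 stood at 121, 123 and 113 CPM, a fall that the fetal to adult comparison did not call, with a log2 difference of -1.05 ± 0.10 (adjusted p = 7.24e-07). No library of the labelled knockout overlapped wild-type fetal liver in these 3 genes.

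Erap1 was likewise well below wild-type fetal liver, at 67.9, 70.7 and 83.9 CPM (log2 -1.32 ± 0.09 SE, edgeR adjusted p = 1.67e-08). Tap2 stood at 63.2, 53.0 and 58.0 CPM (log2 -1.27 ± 0.09, adjusted p = 2.70e-08). Beside these, wild-type fetal liver differed from marrow by -0.33 for Erap1 and -1.48 for Tap2, and the gap between the comparisons was not tested.

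Of the 3 genes that form the surface molecule, B2m and H2-K1 fell and H2-D1 was not called. B2m stood at 186, 149 and 165 CPM in the labelled knockout (log2 -1.13 ± 0.12 SE, edgeR adjusted p = 1.29e-06). H2-K1 stood at 102, 103 and 108 CPM (log2 -1.02 ± 0.13, adjusted p = 1.08e-05). H2-D1 stood at 121, 104 and 127 CPM, overlapping wild-type fetal liver (log2 -0.07 ± 0.08, adjusted p = 0.540), and the gap between the heavy chains was not tested. Divided by transcript length, H2-K1 over H2-D1 was 1.10 to 1.29 in the labelled knockout and 2.13 to 2.35 in wild-type fetal liver, so the ranges were apart, with no test of this ratio. B2m over both heavy chains was 1.61 ± 0.159 (SD, n = 3), between the wild-type fetal and adult values. Nlrc5 stood at 0.999, 0.821 and 0.304 CPM (39 counts in all) and was not called (log2 -0.10 ± 0.34, adjusted p = 0.844), at a depth that leaves a wide error.

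Against wild-type marrow, all 9 tested members fell in the labelled knockout, against 24.2% of all genes, with log2 differences from -6.04 for Nlrc5 to -1.20 for Psme1 and a median of -2.98 (all genes -0.02; edgeR adjusted p from 1.17e-12 to 1.31e-07). H2-K1 differed by -3.93, Psmb8 by -3.44 and Psmb9 by -3.29 on the log2 scale.

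Pathway genes outside the members split in the labelled knockout. Of 7 other heavy chains tested, H2-M3 fell (log2 -1.04), while H2-Q4 (1.16), H2-T24 (1.84) and H2-Q10 rose, the last from 0 counts in all wild-type fetal liver libraries (at least 215-fold higher, taking 3 counts as the group's floor). Psmb10 fell (log2 -0.72), as did the loading factors Tapbpl (-0.77), Pdia3 (-0.60) and Calr (-0.47). The constitutive catalytic subunits were not called (Psmb5 0.05, Psmb6 -0.11, Psmb7 0.25), and Psme3 (0.97) and Psme4 (0.99) rose. Among regulators Rfx5 fell (log2 -1.32), with Irf2 (-0.63) and Nfkb1 (-0.43), while Rfxap rose (0.36).

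Other cell types' markers stood far apart in the labelled knockout. Those higher than in wild-type fetal liver were 15 of 15 tested erythroid, 11 of 12 hepatocyte, 7 of 8 stromal, 9 of 11 granulocyte and 6 of 12 monocyte, macrophage and dendritic markers. The share of all genes called higher in this comparison was not set beside these counts, which are a description only. The 17 erythroid markers, all with counts, summed to 36154 to 41949 CPM, against 532 to 787 CPM in wild-type fetal liver, where Hba-a2, Hbb-bs and Alas2 were at 0. The hepatocyte markers, 12 of 14 with counts, summed to 479 to 1538 CPM against 123 to 132 CPM, and the stromal markers, 9 of 12 with counts, to 101 to 184 CPM against 4.93 to 7.44 CPM. The granulocyte markers, with a median log2 difference of 6.86, summed to 5748 to 11094 CPM against 5207 to 6787 CPM, and the monocyte, macrophage and dendritic markers, with a median of 2.74 and 1 of 12 lower, to 475 to 649 CPM against 544 to 584 CPM. Of the progenitor markers, 7 of 10 with counts, 4 of 6 tested were lower and 1 higher, and they summed to 185 to 256 CPM against 459 to 514 CPM. Of the members 7 also fell when library sizes were computed without the erythroid, hepatocyte and stromal genes. That changes the scaling only and cannot separate cell types within a library. The part of these cells in the class I difference was not tested.

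**Figure D4:**
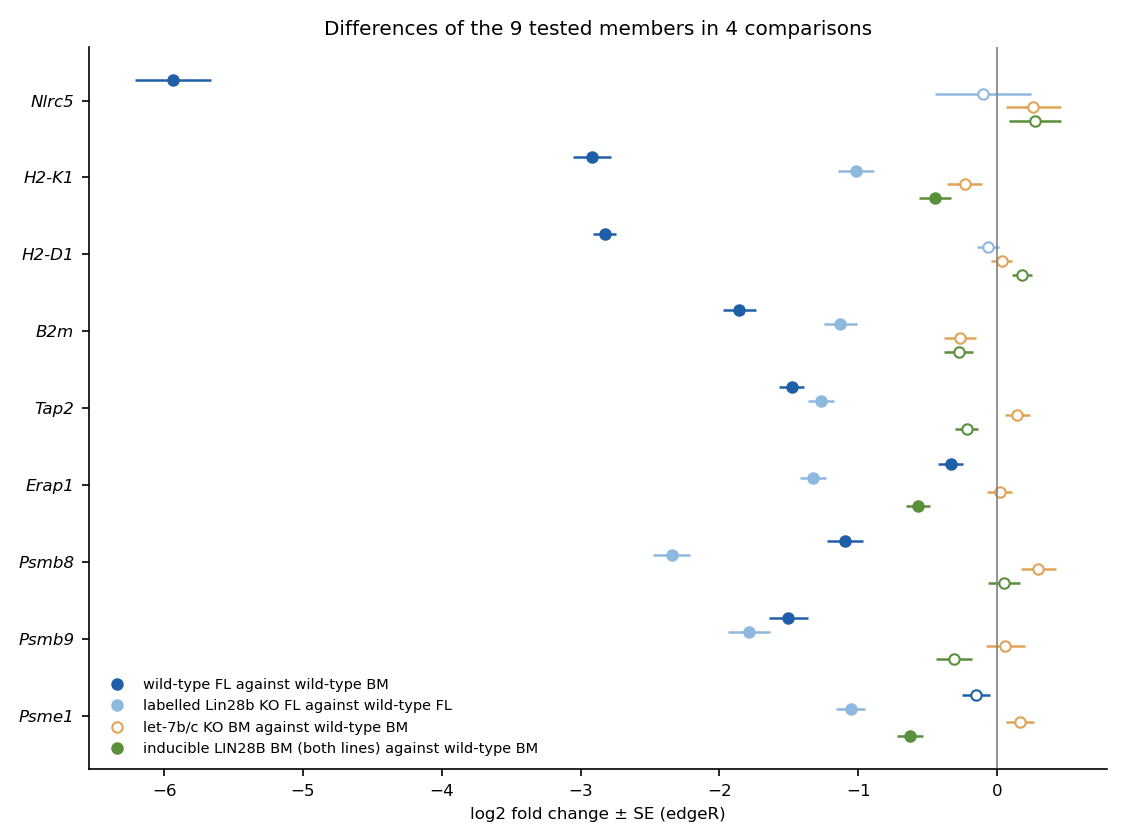
Log2 fold changes with SE (edgeR) of the 9 tested members in 4 comparisons, filled where called at an adjusted p under 0.05 and open otherwise. The fetal to adult difference is deepest for Nlrc5 (-5.94) and the heavy chains, and the labelled knockout difference for Psmb8 (-2.34), Psmb9 and Erap1, while the let-7b/c knockout points are all open.

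**Figure D5:**
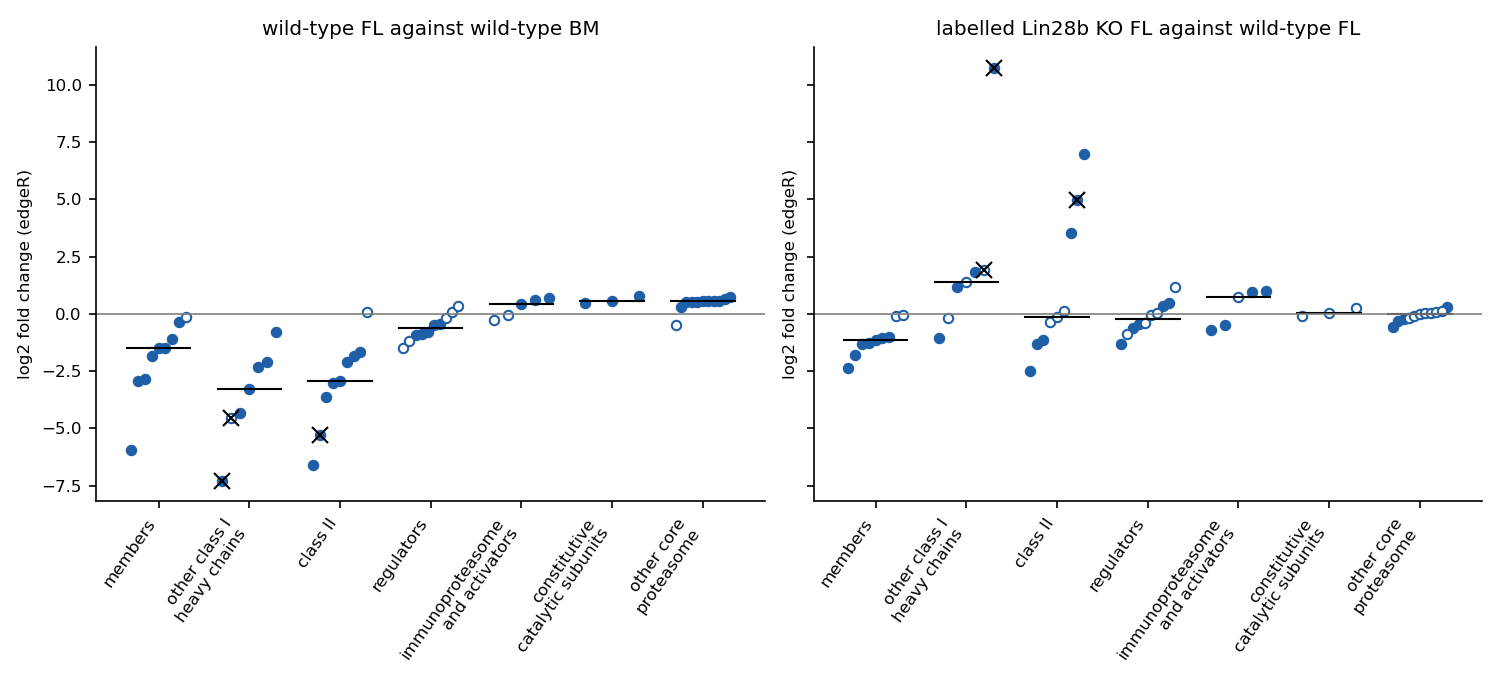
Log2 fold changes (edgeR) of the tested genes in 7 pathway lists, with wild-type fetal liver against wild-type marrow at left and the labelled knockout against wild-type fetal liver at right. Points are genes, filled where called, lines are fitted medians, and crosses mark genes at 0 counts in 1 group, whose fitted value is no bound. At left the members and other heavy chains lie mostly below 0 and the core proteasome above it, and at right the other heavy chains lie mostly above 0.

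A single library came from fetal liver with inducible let-7, so no test was possible. It also held fewer genes with a count (10144) than the other 16 libraries (12079 to 15644). Against the range of the 3 wild-type fetal liver libraries, 6 of the 9 measured members were above, 1 within and 2 below. The share of all genes outside that range was not computed, so these counts are a description of the members only. Psmb8 stood out at 683 CPM, 2.43 times the wild-type fetal mean and inside the range of marrow libraries. Erap1, at 288 CPM, was above every other library of the series (1.55 times the wild-type fetal mean). H2-D1 was at 167 CPM (1.37 times), B2m at 451 CPM (1.24 times), Psme1 at 281 CPM (1.14 times) and Psmb9 at 48.0 CPM (1.10 times). Tap2, at 144 CPM, was inside the wild-type range and H2-K1, at 194 CPM, just under it. Nlrc5 had 2 counts, a ratio of 0.102 to the wild-type fetal level (95% counting interval 0.0120 to 0.392). H2-K1 was at 0.917 times the wild-type fetal mean. A relation between Nlrc5 and the heavy chains was not tested, with 1 library and 2 counts of Nlrc5. Psmb8 over Psmb5 was 3.61 and Psmb10 over Psmb7 1.47, above the wild-type fetal libraries, whereas Psmb9 over Psmb6 was 0.0827, below them. Its granulocyte markers summed to 18904 CPM and its erythroid markers to 359 CPM, and their part was not tested.

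In let-7b/c knockout marrow no member passed the test. None of the 9 tested members was called with edgeR or with DESeq2, against 2.25% of all genes called either way, and 2 had an unadjusted p under 0.05 in edgeR. The log2 differences ran from -0.27 for B2m to 0.30 for Psmb8, with a median of 0.06 (all genes 0.00) and adjusted p from 0.282 to 0.961. Psmb8 stood at 689, 713 and 814 CPM, above the wild-type range of 580.3 to 613 CPM (log2 0.30 ± 0.13 SE, adjusted p = 0.282). B2m stood at 1201, 1141 and 944 CPM, overlapping the wild-type libraries (log2 -0.27 ± 0.11, adjusted p = 0.289). These were the 2 members with an unadjusted p under 0.05, and they lay in opposite directions.

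The heavy chains overlapped wild-type marrow in the let-7b/c knockout. H2-K1 stood at 1601, 1405 and 1067 CPM (log2 -0.23 ± 0.13 SE, edgeR adjusted p = 0.419) and H2-D1 at 846, 879 and 946 CPM (log2 0.03 ± 0.08). Nlrc5 stood at 50.7, 49.3 and 67.1 CPM, above the narrow wild-type range but not called (log2 0.26 ± 0.20, adjusted p = 0.607). Tap2 (397 to 496 CPM), Erap1 (222 to 256 CPM), Psmb9 (114 to 136 CPM) and Psme1 (262 to 362 CPM) overlapped wild type. These errors bound the difference only loosely, and the mice differ from wild type in the labelled strain too, which cannot be told apart from genotype. Among the pathway lists, Tapbpl (log2 0.45) and the receptor chains Ifnar2 (0.56) and Ifngr2 (0.73) rose. Summed monocyte, macrophage and dendritic markers, all 12 with counts, were 842 to 1022 CPM against 529 to 634 CPM in wild-type marrow, with 2 of the 12 called higher and 1 lower, and their part was not tested.

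In marrow with LIN28B induction 3 of the 9 tested members were lower, Erap1, Psme1 and H2-K1, against 7.86% of all genes called lower, when the mean of the lines with and without vavcre was set against wild-type marrow (n = 2, 2 and 3). The median log2 difference of the 9 members was -0.28 (all genes -0.07). Nlrc5, the member with the deepest fetal to adult difference, stood at 58.2 and 46.2 CPM without vavcre and at 60.1 and 60.7 CPM with it, close to or above the wild-type marrow level (log2 0.27, edgeR adjusted p = 0.360). Lin28b, counted on the mouse transcript, was at 1.73 to 3.92 CPM in these 4 libraries and at up to 0.744 CPM in wild-type marrow.

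Markers of other cells also differed in the comparison of LIN28B induction with wild-type marrow. Of 12 tested monocyte, macrophage and dendritic markers 6 were lower and 0 higher, with a median log2 difference of -0.86. They summed to 435 to 448 CPM without vavcre, 536 to 716 CPM with it and 529 to 634 CPM in wild-type marrow. Of the granulocyte markers 2 of 11 tested were lower, with sums of 6199 to 7144 CPM without vavcre, 9731 to 14402 CPM with it and 10978 to 13007 CPM in wild-type marrow. Stromal markers were lower in 3 of 8 tested cases and erythroid markers higher in 3 of 15. Of all genes 7.86% were called lower, and the share called higher was not set beside the erythroid count. The part of these cells in the members' differences was not tested.

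Erap1 stood at 170.4 and 180.0 CPM without vavcre and at 152 and 131 CPM with it, below the 229 to 237 CPM of wild-type marrow. Its log2 difference was -0.57 ± 0.08 (SE, edgeR adjusted p = 0.000803). Psme1 stood at 228 and 257 CPM without vavcre and at 139 and 122 CPM with it (log2 -0.62 ± 0.10, adjusted p = 0.000966). The Psme1 fall was thus mostly in the line with vavcre, and the line without it overlapped wild type.

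H2-K1 showed the same split, at 1531 and 1808 CPM without vavcre and 817 and 821 CPM with it, against 1337 to 1744 CPM in wild-type marrow. Its pooled log2 difference was -0.45 ± 0.12 (SE, edgeR adjusted p = 0.0191), and the call was lost without wild-type marrow replicate 2 (adjusted p = 0.110), wild-type marrow replicate 6 (0.0928) or replicate 1 of the line without vavcre (0.0905). H2-D1 stood at 977 and 909 CPM without vavcre and at 1017 and 1045 CPM with it, above all wild-type marrow libraries. Its log2 difference of 0.18 was not called by edgeR (adjusted p = 0.113) and was called by DESeq2 (adjusted p = 0.0473). B2m stood at 1053 and 1155 CPM without vavcre and at 1138 and 1007 CPM with it (log2 -0.28, edgeR adjusted p = 0.0970, and 0.0235 without wild-type marrow replicate 5, with a log2 difference of -0.39). Tap2 (318 to 359 CPM, log2 -0.22), Psmb8 (536 to 702 CPM, 0.05) and Psmb9 (92.2 to 115 CPM, -0.31) were not called.

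The lines with and without vavcre were compared directly. With vavcre 2 of 9 members were lower, against 11.3% of all genes called lower: H2-K1 by a log2 difference of -1.03 ± 0.16 (SE, n = 2 and 2, edgeR adjusted p = 0.000405) and Psme1 by -0.90 ± 0.13 (adjusted p = 0.000247). H2-D1 was not called (log2 0.13 ± 0.09, adjusted p = 0.365). Erap1 was at -0.31 ± 0.11 and missed the threshold (adjusted p = 0.0643), passing it with DESeq2 (0.0266) or without vavcre replicate 4 (0.0352). Divided by transcript length, H2-K1 over H2-D1 was 1.02 to 1.04 with vavcre and 2.04 to 2.58 without it, and wild-type marrow was at 1.97 to 2.60. Of the other heavy chains, H2-Q4 (log2 -1.18) and H2-T23 (-0.44) were also lower with vavcre. Summed B cell markers, 7 of 8 with counts, were 112 to 156 CPM with vavcre and 73.2 to 75.4 CPM without it, with Ebf1 at 0 in both, and summed granulocyte markers 9731 to 14402 CPM and 6199 to 7144 CPM. Of these, 1 of 7 tested B cell markers and 2 of 11 tested granulocyte markers were called higher with vavcre. The share of all genes called higher was not set beside these small counts, which are a description. Their part was not tested.

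Within wild-type marrow, levels per kilobase of transcript spread widely over the members. B2m was highest at 1533 ± 223 CPM per kilobase (SD, n = 3), followed by H2-K1 at 985 ± 138 and H2-D1 at 414 ± 6.19. The proteasome members came next, with Psmb8 at 369 ± 11.2 and Psme1 at 247 ± 14.8 CPM per kilobase. Tap2 was at 114 ± 5.53, Psmb9 at 91.1 ± 6.65 and Erap1 at 41.4 ± 0.704, and the transactivator Nlrc5 was lowest at 6.69 ± 0.0292 CPM per kilobase. In wild-type fetal liver B2m was still highest (423 ± 19.5 CPM per kilobase), but Psme1 (222 ± 8.91) and Psmb8 (173 ± 12.8) stood above H2-K1 (131 ± 4.66) and H2-D1 (58.3 ± 3.57). In the labelled knockout B2m (194 ± 21.4 CPM per kilobase) was followed by Psme1 (107 ± 4.72), H2-K1 (64.6 ± 2.08) and H2-D1 (55.7 ± 5.84), with Psmb8 (34.1 ± 8.50) below them.

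The order of groups differed between members. Nlrc5, the heavy chains, B2m, Tap2 and Psmb9 had all marrow groups above all fetal liver groups. For Erap1 the let-7 library was highest, wild-type fetal liver and marrow with inducible LIN28B alone overlapped, and marrow with vavcre was lower than wild-type fetal liver. For Psme1 the lowest groups were the labelled knockout and the marrow with vavcre, which overlapped each other at 113 to 123 and 122 to 139 CPM. Over the 17 libraries, the 36 pairs of members had Pearson r of log2 CPM from 0.28 (Nlrc5 and Psme1) to 0.98 (Tap2 and Psmb9), as a description of libraries that share groups.

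The genes most like the members over the 17 libraries were ranked by Pearson r of log2 CPM with the mean of the standardised members, among 12110 genes. Bcl2, an inhibitor of cell death, came first (r = 0.988), at 8.89 CPM on average in the labelled knockout, 35.9 in wild-type fetal liver and 214 in wild-type marrow. It was followed by Mfsd13a (0.986), Aff3 (0.984), Leprotl1 (0.983), Eif4e3 (0.982), Pik3ip1 (0.982), Snx30 (0.976) and Map3k14 (0.975), the last a kinase of NF-kB signalling. For Nlrc5 alone the list was Nwd1 (0.988), Cpne2 (0.981), Ncoa1 (0.974), Ltbp3 (0.973) and Nfkbia (0.969), an inhibitor of NF-kB. Nwd1 stood at 53.0 CPM in wild-type marrow and at 1.29 CPM in wild-type fetal liver. The libraries share tissue, group and depth, so these values describe likeness only.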

How the data were processed

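RNA of 17 libraries of sorted progenitors was measured. Per the labels' protocols, total RNA was amplified with SMARTer ultra-low-input chemistry. Build mm10 and the tools cutadapt, TopHat2 and HTSeq are named in the submitters' processing notes. Versions, the strand setting and the order of steps are not given in the sources. The authors deposited raw counts for 33818 RefSeq transcript accessions per library, with HTSeq's summary lines at the end. Reads that matched several transcripts (23.8% to 29.8% of those placed uniquely) and reads in no transcript (8.87% to 19.3%) carry no gene and were left out.

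Counts were summed per gene with names from RefSeq GRCm38.p6 (33435 accessions) or GENCODE vM21 (191), and 192 stayed unnamed. The planned test of counts per gene was run on these sums. edgeR 4.0.16 fitted 7 group means to all 17 libraries (TMM, filterByExpr, 10 residual degrees of freedom), and standard errors are the fold change over the root of F. Ratios used counts + 0.5 and scipy 1.17.1. Transcript lengths came from GENCODE vM21 and promoters from RefSeq. Alternatives were DESeq2 1.42.0, DESeq2 size factors, no filter, fewer groups, library sizes without erythroid, hepatocyte and stromal genes, single-transcript genes, each library left out, a replicate block, counts + 5 and plain library totals. The fit was tested on simulated data. All 10 members are named, and other genes come from the pathway lists or from the likeness ranks, plus Kcnq1ot1, Hspa14 and Xpnpep1, named after their values were seen. Members and lists were chosen with earlier results of these data known.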

Additional observations from a re-analysis of the deposited data

Results flagged for a closer look

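The effect of LIN28B induction in marrow differed between its lines in 2 members, by edgeR's test of the difference itself. H2-K1 was lower with vavcre than without it by a log2 difference of -1.03, at 817 and 821 CPM against 1531 and 1808 CPM. Psme1 was lower with vavcre by -0.90, at 139 and 122 CPM against 228 and 257 CPM (n = 2 and 2). The lower libraries did not overlap the higher ones in either gene. With so few libraries the lines did not overlap, in either direction, in 8 of the 9 tested members, so this sets neither gene apart from the other members. The share of all genes without overlap was not set beside that count, which is a description only. No group had enough libraries for a search for single outlying samples.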

How the results depend on the processing

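No called difference changed direction in any alternative. In 8 recomputations an uncalled member's log2 difference near 0 changed sign and stayed uncalled. In the labelled knockout against wild-type fetal liver, H2-D1 (-0.07) came to 0.0096 with DESeq2 and 0.0088 with its size factors, and with single libraries left out ran from -0.13 to 0.019. Over left-out libraries Nlrc5 in that comparison (-0.10) ran from -0.45 to 0.28, Erap1 in the let-7b/c knockout (0.02) from -0.022 to 0.087 and B2m with against without vavcre (-0.04) from -0.13 to 0.038. The cause was not tested. Of the counts of members and the subunit ratios, recomputed under each alternative, 186 values stayed within the limits set for them and 2 did not. Both were in the comparison of LIN28B induction with wild-type marrow: DESeq2 called 1 member higher (H2-D1), and a fit with the replicate number as a replicate block called 0 members lower instead of 3. Under that block Erap1 was at -0.62, Psme1 at -0.61 and H2-K1 at -0.31 on the log2 scale, and 21 genes in all were called instead of 1958. The block spends coefficients on the replicate numbers and leaves few residual degrees of freedom. Deviations from the group means correlated at -0.04 for the libraries numbered 5 and 0.03 for those numbered 6. So few pairs cannot decide whether equal numbers mark shared handling, which the labels do not state. The other comparisons share fewer than 2 replicate numbers. The count of all genes called moved by over 1.5 times in 3 comparisons. For the let-7b/c knockout it was 305, against 784 with DESeq2 and 96 to 191 without let-7b/c knockout replicate 2 or any 1 of the wild-type marrow replicates. For LIN28B induction it was 1958, against 1132 with the compared groups alone and 1095 to 1206 without wild-type marrow replicate 2 or 6 or inducible LIN28B replicate 1. For vavcre against none it was 2799, against 422 with the compared groups alone and 1376 without inducible LIN28B replicate 5. Among single members' levels and differences and the counts of all genes, 727 values stayed within their limits, 43 moved, 8 changed sign, 4 gained a call and 8 lost it. Members' calls that changed without a block are given beside their values. Depth limits Nlrc5 in fetal liver (44 counts in wild type) and the counting of transcripts limits Tap1.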
